A study of Mus musculus with 8 samples.

Results

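Sternal chondrocytes of the genotype Col2a1Cre;Idh1 fl/+ were compared with sternal chondrocytes of the genotype Idh1 fl/+ that carried no Cre. All 5 libraries named in the labels for these genotypes entered the comparison, of 8 RNA-seq libraries in the series: 3 of Col2a1Cre;Idh1 fl/+ cells (here Cre-Idh1) and 2 of Idh1 fl/+ cells (here floxed control). The 3 other libraries, of Col2a1Cre cells without the Idh1 allele (here Cre control), entered no main test of Cre-Idh1; they gave values beside some results, comparisons of each group with this second control, and an alternative fit of all 8 libraries. All cells were primary chondrocytes released by enzymes from the sternum of C57BL/6 mice at embryonic day 18.5. The groups shared strain, stage and cell type, and Cre-Idh1 and the floxed control shared the Idh1 allele. By genotype they thus differed in the Cre transgene together with whatever recombination it causes at Idh1. By Xist and Ddx3y, described below, Cre-Idh1 replicate 1 had the female pattern and the rest of the 5 libraries the male one. The Col2a1 promoter that drives Cre is active in chondrocytes and their precursors, and the recombined share of cells was not part of these data. The sample labels give the allele as fl/+, whereas the text on the series' design gives it as fl/fl, and neither states which change the recombined allele carries. Nothing in the labels ties a library to an animal or a batch, so the p-values below measure the spread between these libraries, which may be technical.

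IDH1 is the cytosolic enzyme that oxidizes isocitrate to alpha-ketoglutarate and makes NADPH. Cancer-associated mutants of IDH1, which are common in human enchondroma and chondrosarcoma, instead reduce alpha-ketoglutarate to 2-hydroxyglutarate, a metabolite that can inhibit dioxygenases such as the TET enzymes, the prolyl hydroxylases that sense oxygen and histone demethylases. Chondrocytes of the growth plate proliferate, enlarge into hypertrophic cells and mineralize their matrix under the control of Indian hedgehog and parathyroid hormone-related protein. In a floxed mouse line, the allele is recombined only in cells that have made Cre.

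In Cre-Idh1 chondrocytes, most tested genes of the oxidative stress response regulated by NRF2, the metallothionein genes Mt1 and Mt2, several p53 target genes, most enzymes of cholesterol synthesis and several secreted proteases and their inhibitors were higher than in the floxed control. Several leucine-rich proteoglycans of cartilage, some genes of hypertrophic chondrocytes, Hedgehog targets, some glycolysis and hypoxia genes and genes of mitosis were lower. The main cartilage collagens, aggrecan and SOX9 did not pass the test. Of 15212 genes tested, 1137 were higher in Cre-Idh1 (7.47%) and 1059 lower (6.96%), or 14.4% in either direction, at a Benjamini-Hochberg adjusted p under 0.05 by limma on log2(normalized count + 1), two-sided. Of these, 608 higher and 360 lower genes differed at least 2-fold. All 3 Cre-Idh1 libraries lay above both floxed control libraries for 26.6% of the genes tested and below both for 26.7%, or 53.4% in all. The median log2 fold change of all genes tested was 0.002, and its median size was 0.31. Counts of list members called or not overlapping are to be read beside these shares throughout.

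With 2 floxed control libraries, the number of calls rested on single libraries. It was 1432, 1325 and 3752 without Cre-Idh1 replicate 1, 2 or 3, and 569 and 219 without floxed control replicate 1 or 2, against 2196 with all 5. Across those 5 fits, 195 genes were called every time, 129 higher (0.848% of the genes tested) and 66 lower (0.434%), and they are called robust below. In the plot of calls with each library left out, the bars shrink most where a floxed control library is missing. When a floxed control library is left out, the remaining one is assumed to vary as the Cre-Idh1 libraries do.

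**Figure D1:**
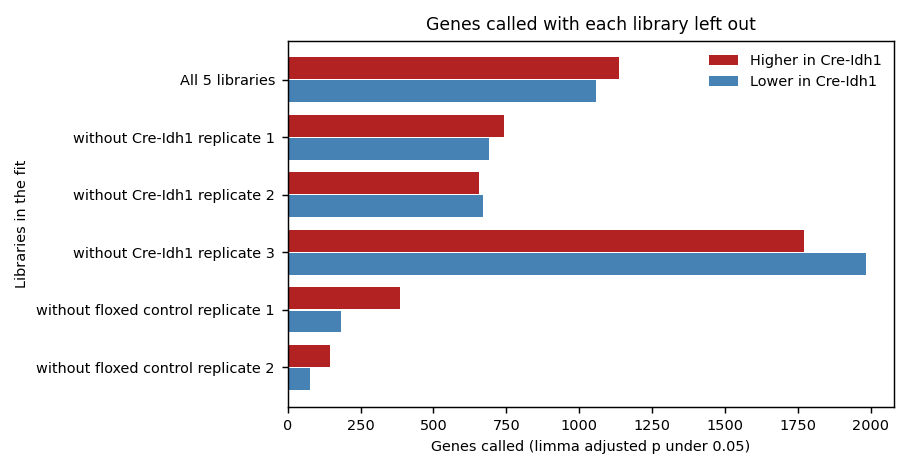
Genes called higher (red) and lower (blue) in Cre-Idh1 than in the floxed control, on the x axis, for fits with all 5 libraries and with each library left out, on the y axis. The full fit called 1137 and 1059 genes, and the fit without floxed control replicate 2 called 144 and 75.

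The depth recovered from the deposited values was 34264560 to 39979186 reads on genes in the Cre-Idh1 libraries and 37973122 and 44988540 in the floxed control libraries. Col2a1 alone took 16.9% to 21.3% of the reads of these 5 libraries. Within Cre-Idh1, 5.89% to 8.28% of the genes tested differed at least 2-fold between any 2 libraries, and 4.40% did so between the floxed controls. Between the groups 1678 to 2732 genes did so, up to 18.0%. No pair of libraries agreed within sampling noise, with 30.5 or more chi-square units per degree of freedom in each pair of replicates. Xist and Y-linked Ddx3y were at 29645 and 13.4 normalized counts in Cre-Idh1 replicate 1, against 27.5 to 54.2 and 2576 to 4970 in the other 4 libraries. Cre-Idh1 replicate 1 thus had the pattern of female cells and the other 4 that of male cells, and the fit without it, with 743 genes higher and 689 lower, compared males only. Of the Cre control libraries, replicates 1 and 3 had the female pattern, with Xist at 40733 and 22916, and replicate 2 the male one, with Xist at 49.4, so each comparison with the Cre control mixes the sexes. None of the 8 defining chondrocyte markers was called, and their median log2 fold change was -0.25. For 4 of the 8 all Cre-Idh1 libraries lay below both floxed controls and for 0 above, beside 26.7% and 26.6% of all genes. Their mean log2 value differed from the floxed control mean by -0.29, -0.12 and -0.24 in the Cre-Idh1 libraries. Markers of macrophages, osteoclasts, muscle and epithelium are given beside the results they move with. In such bulk samples, fewer cells of a type and less RNA per cell cannot be told apart.

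**Figure D2:**
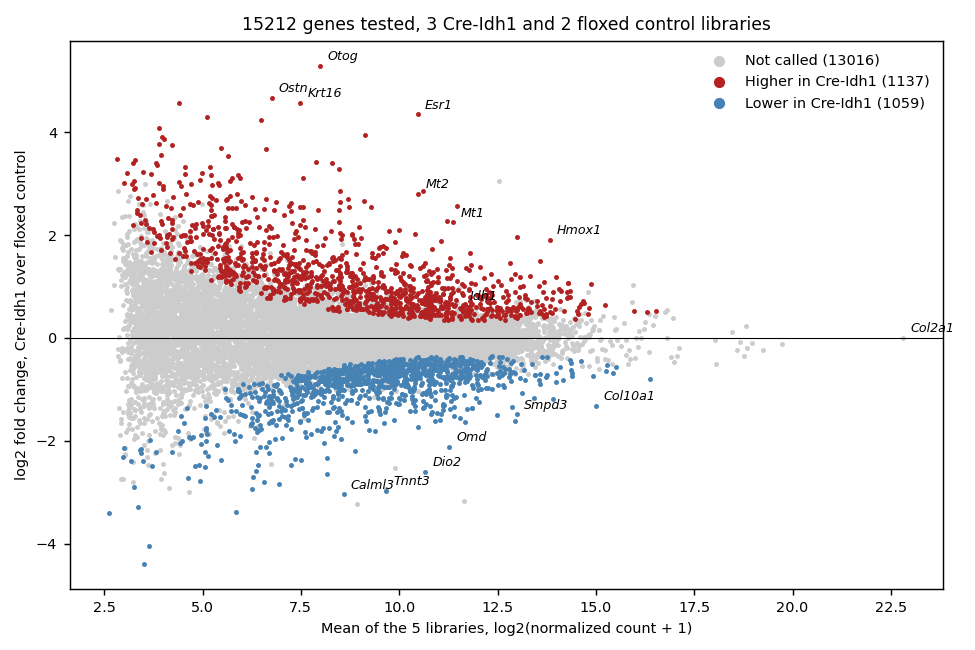
The log2 fold change of Cre-Idh1 over the floxed control (y axis) against the mean of the 5 libraries on the log2(normalized count + 1) scale (x axis), 1 point for each of 15212 genes tested. The 1137 genes called higher are red and the 1059 called lower are blue, and Esr1 lies at a log2 fold change of 4.35.

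Idh1 itself was higher in Cre-Idh1 than in the floxed control. It had 3549, 3948 and 3465 normalized counts in the Cre-Idh1 libraries, against 2263 and 2452 in the floxed control libraries. Every Cre-Idh1 library was above both floxed controls, and the log2 fold change was 0.63 ± 0.11 (SE; limma adjusted p = 0.0105). The call was lost without some single libraries, with an adjusted p of up to 0.106. The Cre control libraries had 3624, 3647 and 3991 normalized counts, in the same range as Cre-Idh1, where the difference was -0.04 ± 0.09 (limma adjusted p = 0.784). These are counts over the whole gene, which do not tell the floxed allele from the other.

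Among called genes of at least 1000 normalized counts, the largest difference was at Esr1, which encodes estrogen receptor alpha. Esr1 had 2529, 2128 and 2209 normalized counts in Cre-Idh1, 1860, 1922 and 1599 in the Cre control, and 117 and 105 in the floxed control. Both groups with the Cre transgene were thus high and the group without it low, with no overlap. The labels do not say whether the Cre transgene itself includes Esr1 sequence, as a Cre fused to the ligand-binding domain of this receptor would, and counts over the gene cannot tell reads of such a transgene from reads of Esr1. The log2 fold change of Cre-Idh1 over the floxed control was 4.35 ± 0.13 (limma adjusted p = 4.31e-05), a 20.4-fold difference. Floxed control over Cre control gave -4.00 ± 0.11 (limma adjusted p = 4.28e-06), while Cre-Idh1 over Cre control gave 0.35 ± 0.11 (limma adjusted p = 0.0494).

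Whether the effect of the Cre-Idh1 genotype depends on the control is tested by the difference between the controls themselves, since both comparisons share the Cre-Idh1 libraries. Of 14870 genes tested, floxed control over Cre control gave 2 genes lower (0.0134%) and 0 higher (0%) by limma, with 1133 genes at an unadjusted p under 0.05. Those 2 were Esr1 and Gas6, which encodes a ligand of the TAM receptor tyrosine kinases. Gas6 had 1964, 2385 and 2698 normalized counts in Cre-Idh1, 3038, 3046 and 3174 in the Cre control, and 1909 and 1922 in the floxed control. Its log2 difference was 0.28 ± 0.14 for Cre-Idh1 over the floxed control (limma adjusted p = 0.222) and -0.69 ± 0.06 for floxed control over Cre control (limma adjusted p = 0.0239). Idh1 came next, at -0.67 ± 0.07 for floxed control over Cre control with an adjusted p of 0.0726. Of the 2196 called genes, the mean of the Cre control lay nearer to the floxed control for 2073 (94.4%) and nearer to Cre-Idh1 for 123, and for 756 all 3 Cre control libraries lay between the other groups. These counts describe genes that the floxed control values helped to choose. The same counts were not made over all genes tested, so no excess can be read from them.

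**Figure D3:**
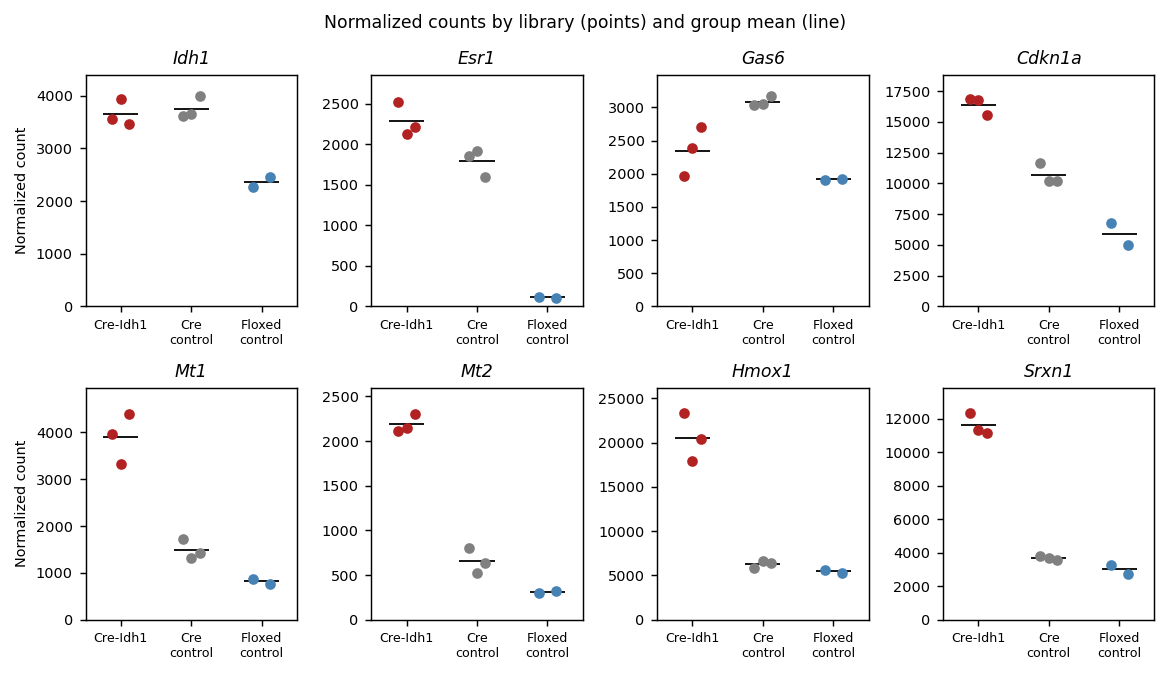
Normalized counts of 8 genes in each library (points) with the group mean (line), for Cre-Idh1, Cre control and floxed control from left to right; each y axis starts at 0. Esr1 and Idh1 are low only in the floxed control, while Hmox1 and Srxn1 are high only in Cre-Idh1 and Mt1, Mt2 and Cdkn1a are in between in the Cre control.

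Among the other enzymes around isocitrate and 2-hydroxyglutarate, 2 fell. Idh2, the mitochondrial NADP-dependent isocitrate dehydrogenase, had 2041, 1836 and 2088 normalized counts in Cre-Idh1, against 2813 and 2948 in the floxed control (log2 fold change -0.54 ± 0.11, limma adjusted p = 0.0176). Adhfe1, which encodes a mitochondrial hydroxyacid-oxoacid transhydrogenase that can form D-2-hydroxyglutarate, had 175, 207 and 206, against 477 and 529 (-1.36 ± 0.16, limma adjusted p = 0.00359). D2hgdh, a dehydrogenase that removes D-2-hydroxyglutarate, averaged 299 ± 25.7 in Cre-Idh1 (SD, n = 3) and 291 ± 3.21 in the floxed control (SD, n = 2) and was not called. Of 17 genes of the tricarboxylic acid cycle, 1 fell, and of 11 genes that supply NADPH, 1 rose and 1 fell. That fall was of Aldh1l1, a folate enzyme that makes NADPH, at 28.9, 24.5 and 46.7 normalized counts in Cre-Idh1, against 144 and 161 in the floxed control.

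Of 16 genes for TET, JmjC and other alpha-ketoglutarate-dependent dioxygenases, 1 fell and 0 rose, and their median log2 fold change was -0.02. The one that fell was Tet1, which encodes a methylcytosine dioxygenase, with 750, 847 and 619 normalized counts in Cre-Idh1, against 1628 and 2395 in the floxed control (-1.43 ± 0.20, limma adjusted p = 0.00594). Its relatives did not pass the test: Tet2 averaged 1661 ± 49.8 in Cre-Idh1 and 1683 ± 141 in the floxed control, and Tet3 4217 ± 324 and 3348 ± 304. Among 15 collagen hydroxylases and folding helpers 2 rose, Leprel1, a collagen prolyl 3-hydroxylase, by 0.80 ± 0.10 and Plod3, a lysyl hydroxylase, by 0.49 ± 0.12 on the log2 scale (limma adjusted p = 0.00465 and 0.0336).

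Genes of the NRF2 response rose. NRF2, encoded by Nfe2l2, is a transcription factor that is released from KEAP1 under oxidative or electrophilic stress and activates antioxidant genes. Of 14 members tested, 11 rose and 0 fell, beside 7.47% higher among all genes, and the list's median log2 fold change was 0.73. Hmox1, which encodes the heme-degrading enzyme heme oxygenase 1, had 23358, 17942 and 20370 normalized counts in Cre-Idh1, against 5572 and 5320 in the floxed control. Srxn1, which encodes sulfiredoxin, the enzyme that repairs overoxidized peroxiredoxins, had 12329, 11312 and 11136, against 3277 and 2714. Every Cre-Idh1 library thus lay more than 3-fold above both floxed controls for both genes, with log2 fold changes of 1.91 ± 0.13 for Hmox1 (limma adjusted p = 0.000966) and 1.96 ± 0.12 for Srxn1 (limma adjusted p = 0.000775), and both were robust. The Cre control libraries were at 5873, 6687 and 6428 for Hmox1, close to the floxed control.

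Osgin1, a stress-induced growth inhibitor, had 1114, 661 and 829 normalized counts in Cre-Idh1, against 344 and 233 in the floxed control (1.58 ± 0.25, limma adjusted p = 0.00905). Gclc, the catalytic subunit of the enzyme that starts glutathione synthesis, averaged 4587 ± 597 in Cre-Idh1 and 2183 ± 205 in the floxed control, and its modifier subunit Gclm averaged 2579 ± 390 and 1705 ± 11.7. Fth1, the ferritin heavy chain that stores iron, averaged 37759 ± 3145 and 18259 ± 1997, and the light chain Ftl1 6033 ± 1015 and 3522 ± 531. All 4 rose, as did the thioredoxin system genes Prdx1 (log2 fold change 0.84 ± 0.11) and Txnrd1 (0.69 ± 0.13), the quinone reductase Nqo1 (0.52 ± 0.12) and Nfe2l2 itself (0.69 ± 0.12). Among the members not called, Keap1 averaged 3327 ± 361 and 3276 ± 76.8, and the cystine transporter Slc7a11 had 3087, 2453 and 1377 normalized counts in Cre-Idh1, against 1813 and 2069, so that its groups overlapped. Without some single libraries the adjusted p of the 9 called members other than Hmox1 and Srxn1 went up to between 0.0591 for Fth1 and 0.268 for Nqo1.

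Srxn1 and Osgin1 are shown with their RefSeq promoter windows (mouse build GRCm38.p6, 250 bases before to 50 after the annotated start, sense strand). Both rose with the NRF2 list and hold the motif TGANTCA, the AP-1 core, which is in capitals. Some antioxidant response elements contain it, but the search did not require the other bases of such an element. The Srxn1 window is chr2:152105274-152105573 on the plus strand and the Osgin1 window is chr8:119436897-119437196 on the plus strand.
Srxn1: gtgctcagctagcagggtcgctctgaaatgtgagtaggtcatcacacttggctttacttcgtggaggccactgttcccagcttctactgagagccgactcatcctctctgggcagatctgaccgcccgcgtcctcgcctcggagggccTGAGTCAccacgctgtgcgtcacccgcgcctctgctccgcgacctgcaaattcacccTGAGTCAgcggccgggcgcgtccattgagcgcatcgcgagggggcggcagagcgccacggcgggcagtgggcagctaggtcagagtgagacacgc
Osgin1: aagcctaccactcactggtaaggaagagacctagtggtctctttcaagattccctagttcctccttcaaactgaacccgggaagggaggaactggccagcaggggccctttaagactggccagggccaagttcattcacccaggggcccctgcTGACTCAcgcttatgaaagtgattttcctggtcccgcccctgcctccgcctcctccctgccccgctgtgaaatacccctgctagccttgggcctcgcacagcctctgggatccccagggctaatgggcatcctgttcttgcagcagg
The motif, searched on both strands, was found at 2 places in the Srxn1 window and at 1 in the Osgin1 window, in 3 of the 11 windows of the NRF2 list, and in 7.93% of all 27025 promoter windows of the same length.

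Of 7 metallothionein and zinc transport genes, Mt1 and Mt2 rose and the 5 others, the metallothionein Mt3 among them, were not called. Metallothioneins are small cysteine-rich proteins that bind zinc and copper and are induced by metals and oxidants. Mt2 had 2112, 2142 and 2304 normalized counts in Cre-Idh1, against 304 and 322 in the floxed control, and Mt1 had 3962, 3325 and 4402, against 872 and 763. The log2 fold changes were 2.80 ± 0.11 for Mt2 (limma adjusted p = 0.000137) and 2.25 ± 0.14 for Mt1 (limma adjusted p = 0.000902), and both calls were robust. The Cre control lay in between, with 806, 519 and 637 for Mt2 and 1718, 1314 and 1429 for Mt1, and floxed control over Cre control did not pass the test (limma adjusted p = 0.249 and 0.189). Mt1 and Mt2 are similar in sequence, so reads could be split between them. Mt3 had 30.0, 10.8 and 43.6 normalized counts in Cre-Idh1, against 5.86 and 2.63 in the floxed control (limma adjusted p = 0.0546).

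Of 23 p53 target genes, 11 rose and 0 fell, beside 7.47% higher and 6.96% lower among all genes. Their median log2 fold change was 0.74. The groups did not overlap for 16 that were higher and 2 that were lower in Cre-Idh1, beside 26.6% and 26.7% of all genes. Cdkn1a, which encodes the cell cycle inhibitor p21, had 16869, 16765 and 15609 normalized counts in Cre-Idh1, 11696, 10206 and 10175 in the Cre control and 6755 and 4971 in the floxed control. The 3 groups did not overlap, and Cre-Idh1 was 2.83-fold above the floxed control (SE 0.14 on the log2 scale, limma adjusted p = 0.00195). Gdf15, a stress-induced cytokine, had 2226, 2458 and 2976 in Cre-Idh1, against 750 and 778 in the floxed control (1.73 ± 0.14, limma adjusted p = 0.0017). Perp, a desmosome-associated p53 effector, had 1061, 1066 and 866, against 392 and 224 (1.74 ± 0.24, limma adjusted p = 0.00559). These 3 were robust, and Plk2, a kinase (1.27 ± 0.22), and the apoptosis genes Bbc3 (1.13 ± 0.14) and Bax (0.83 ± 0.16) rose too. Mdm2, which encodes the ligase that degrades p53, averaged 3814 ± 318 in Cre-Idh1 and 2997 ± 432 in the floxed control and was not called. Against the floxed control mean, the list's mean log2 value was higher by 0.80, 0.78 and 0.53 in the Cre-Idh1 libraries and by 0.53, 0.42 and 0.41 in the Cre control libraries.

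Other cell cycle inhibitors went both ways. Cdkn2b, which encodes p15, averaged 119 ± 15.0 in Cre-Idh1 and 59.5 ± 9.76 in the floxed control and rose. Cdkn2c, which encodes p18, had 772, 783 and 668, against 1329 and 1396, and Cdkn1c, which encodes the p57 protein of differentiating chondrocytes, had 18844, 17446 and 18112, against 27766 and 23386. Both fell (-0.88 ± 0.12 and -0.49 ± 0.12, limma adjusted p = 0.00594 and 0.0307).

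Of 20 mitosis genes, 10 fell and 0 rose, beside 6.96% lower among all genes, with a median log2 fold change of -0.60. For all 20 the 3 Cre-Idh1 libraries lay below both floxed controls, beside 26.7% of all genes. Over the list, the Cre-Idh1 libraries differed from the floxed control mean by -0.44, -0.52 and -0.79 on the log2 scale. The Cre control libraries differed from it by -0.22, -0.23 and -0.15. Top2a, the topoisomerase that untangles chromosomes before division, had 4055, 4242 and 2821 normalized counts in Cre-Idh1, against 5955 and 6076 in the floxed control (-0.72 ± 0.18, limma adjusted p = 0.0358). Cenpf, a kinetochore protein, had 1378, 1303 and 824, against 1981 and 2208 (-0.88 ± 0.22, limma adjusted p = 0.0384). In both genes Cre-Idh1 replicate 3 was the lowest library. Plk1, a mitotic kinase, had 716, 680 and 648, against 1099 and 1098 (-0.69 ± 0.11, limma adjusted p = 0.0101), and the kinase Aurkb had 476, 460 and 450, against 762 and 762 (-0.72 ± 0.12, limma adjusted p = 0.0102). Of 22 DNA replication genes, 4 fell with a median of -0.20: the ribonucleotide reductase subunits Rrm2 (-0.98 ± 0.16) and Rrm1 (-0.63 ± 0.15), the thymidine kinase Tk1 (-0.75 ± 0.17) and the primase subunit Prim1. Mcm2, of the replicative helicase, averaged 1855 ± 102 in Cre-Idh1 and 2060 ± 145 in the floxed control and was not called. None of the mitosis calls was robust, and the adjusted p of Top2a, Cenpf and Plk1 went up to 0.228, 0.26 and 0.127 without some single libraries.

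The Top2a window (chr11:99024140-99024439, minus strand, GRCm38.p6, RefSeq) is shown because the promoters of genes of G2 and mitosis are known for CCAAT boxes and the cell cycle homology region with the core TTTGAA. Both motifs, or their reverse complements ATTGG and TTCAAA, are in capitals.
Top2a: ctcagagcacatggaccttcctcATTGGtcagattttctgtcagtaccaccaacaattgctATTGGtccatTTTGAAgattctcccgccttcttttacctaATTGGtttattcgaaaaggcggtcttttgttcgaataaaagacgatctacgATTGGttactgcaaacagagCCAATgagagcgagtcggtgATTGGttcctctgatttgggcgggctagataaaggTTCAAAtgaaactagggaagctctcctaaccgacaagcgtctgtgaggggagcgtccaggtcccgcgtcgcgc
It holds 6 CCAAT and 2 TTTGAA motifs over both strands. The window of Cenpf, which fell more than Top2a, holds fewer, 2 CCAAT and 1 TTTGAA, and is not printed. CCAAT was found in 16 and TTTGAA in 13 of the 17 windows of the mitosis list, beside 37.9% and 18.1% of all windows.

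Of 21 enzymes of cholesterol synthesis, 16 rose and 0 fell, beside 7.47% higher among all genes. Their median log2 fold change was 0.74. For 20 of 21 all Cre-Idh1 libraries lay above both floxed controls, beside 26.6% of all genes. Mvd, mevalonate diphosphate decarboxylase, had 2817, 3361 and 3761 normalized counts in Cre-Idh1, against 1191 and 1257 in the floxed control (1.43 ± 0.14, limma adjusted p = 0.00208). Idi1, isopentenyl diphosphate isomerase, had 342, 424 and 280, against 122 and 138 (1.40 ± 0.21, limma adjusted p = 0.0073). Lss, which closes the sterol rings, averaged 10240 ± 1048 in Cre-Idh1 and 4295 ± 473 in the floxed control. Mvd and Lss were among the robust members. Of 11 genes of SREBP control and sterol uptake, 5 rose, among them Insig1, which retains SREBP in the endoplasmic reticulum, at 14809, 17395 and 13388 normalized counts in Cre-Idh1, against 7232 and 7721 in the floxed control (1.02 ± 0.13, limma adjusted p = 0.00461). Srebf2, which encodes the SREBP of the cholesterol pathway, averaged 14570 ± 748 in Cre-Idh1 and 11053 ± 195 in the floxed control and rose. Srebf1 averaged 5940 ± 739 in Cre-Idh1 and 7833 ± 60.9 in the floxed control and was not called.

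Of 9 genes tested for the removal and storage of sterols, 3 fell and 1 rose, with a median log2 fold change of -0.01. Cyp39a1, an oxysterol hydroxylase, fell to 112, 113 and 103 normalized counts in Cre-Idh1, against 511 and 600 in the floxed control (-2.33 ± 0.17, limma adjusted p = 0.00116), and its call was robust. Cyp7b1, another oxysterol hydroxylase, had 129, 117 and 107, against 283 and 268, and Soat1, which esterifies cholesterol for storage, averaged 3360 ± 519 and 5511 ± 737. Both fell. Abcg1, a sterol exporter, rose to 175, 90.2 and 118, against 33.2 and 45.6 (1.64 ± 0.33, limma adjusted p = 0.0188), while the exporter Abca1 averaged 598 ± 211 and 577 ± 39.4 and was not called. Of 16 genes of fatty acid synthesis and desaturation 4 rose, Acss2 (acetyl-CoA synthetase, 1.34 ± 0.16), Lpin1 (a phosphatidate phosphatase, 0.95 ± 0.11), Acly (ATP citrate lyase, 0.78 ± 0.11) and Fasn (fatty acid synthase, 0.59 ± 0.12), and 1 fell, Gpam (a glycerol-phosphate acyltransferase, -0.58 ± 0.12). Acss2 was the robust one of these 5. Adipocyte markers moved with these genes: of 7 listed markers 3 were tested and the rest not analysed here, and all 3 were higher in every Cre-Idh1 library than in both floxed controls. Fabp4, a fatty acid-binding protein, rose, with 223, 188 and 353 normalized counts in Cre-Idh1, against 80.1 and 35.1 in the floxed control (2.19 ± 0.40, limma adjusted p = 0.0138), while Lpl and Pparg were not called. The summed level of the 3 was 1505, 1211 and 1234 in Cre-Idh1, against 763 and 756 in the floxed control, and their part in the lipid results was not tested.

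The Mvd window (chr8:122443373-122443672, minus strand) and the Idi1 window (chr13:8885356-8885655, plus strand; both GRCm38.p6, RefSeq, sense strand) are shown as the called cholesterol enzymes with the largest changes. Capitals mark CCAAT, the NF-Y box, and GGGCGG, the SP1 box, or their reverse complements, since NF-Y and SP1 are known partners of SREBP.
Mvd: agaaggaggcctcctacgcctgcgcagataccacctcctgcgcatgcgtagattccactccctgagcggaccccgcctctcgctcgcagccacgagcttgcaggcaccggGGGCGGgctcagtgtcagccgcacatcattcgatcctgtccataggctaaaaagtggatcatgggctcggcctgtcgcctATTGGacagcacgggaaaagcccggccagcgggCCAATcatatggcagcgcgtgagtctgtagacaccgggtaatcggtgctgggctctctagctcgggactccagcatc
Idi1: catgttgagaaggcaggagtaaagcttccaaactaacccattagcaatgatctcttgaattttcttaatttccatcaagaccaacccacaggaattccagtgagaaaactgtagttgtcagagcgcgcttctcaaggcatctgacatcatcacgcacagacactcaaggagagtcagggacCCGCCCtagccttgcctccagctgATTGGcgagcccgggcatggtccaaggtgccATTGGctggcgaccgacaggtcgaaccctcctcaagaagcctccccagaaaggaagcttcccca
Each window holds 2 CCAAT motifs and 1 GGGCGG motif over both strands. In the 16 windows of the cholesterol list CCAAT was found in 14, GGGCGG in 15 and the sterol element TCACNCCAC in 1, beside 37.9%, 35.9% and 1.22% of all windows. Neither box was particular to this list. GGGCGG was in 15 of 17 mitosis and 8 of 11 NRF2 windows, and CCAAT in 16 and 3 of these. The letters of the sterol element were not in either of the 2 windows shown.

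Of 20 genes of glycolysis and lactate, 7 fell and 1 rose, with a median log2 fold change of -0.49. Over the list, the Cre-Idh1 libraries differed from the floxed control mean by -0.50, -0.39 and -0.48 on the log2 scale and the Cre control libraries by -0.39, 0.32 and -0.21, so that Cre control replicate 1 was about as low as Cre-Idh1 replicate 2. Slc16a3, the lactate exporter MCT4, had 1168, 1131 and 892 normalized counts in Cre-Idh1, against 3230 and 3269 in the floxed control (-1.62 ± 0.14, limma adjusted p = 0.00187). Aldoc, an aldolase, had 218, 211 and 219, against 647 and 580 (-1.50 ± 0.14, limma adjusted p = 0.00195), and Tpi1, triosephosphate isomerase, 3210, 3719 and 3674, against 6942 and 6998 (-0.98 ± 0.11, limma adjusted p = 0.00269). These 3 were robust, and the phosphofructokinases Pfkl, Pfkm and Pfkp fell by 0.79, 0.77 and 0.63 on the log2 scale. The glucose transporter Slc2a1 went the other way, to 12624, 14390 and 14916 in Cre-Idh1, against 9603 and 9755 in the floxed control (0.53 ± 0.11, limma adjusted p = 0.021). Ldha, lactate dehydrogenase, averaged 11347 ± 1600 and 13034 ± 271 and was not called.

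Of 16 other hypoxia targets, 6 fell and 2 rose, with a median of -0.33. Car9, the carbonic anhydrase that is a widely used marker of hypoxia, had 108, 278 and 211 normalized counts in Cre-Idh1, against 719 and 1025 in the floxed control (-2.21 ± 0.38, limma adjusted p = 0.0112). Bnip3, a mitophagy receptor, had 478, 840 and 559, against 1305 and 1643 (-1.27 ± 0.24, limma adjusted p = 0.0158), and the oxygen-sensing prolyl hydroxylase Egln3 had 404, 443 and 259, against 649 and 696 (-0.90 ± 0.23, limma adjusted p = 0.0423). Ndrg1, a stress-responsive differentiation gene of the same list, rose to 3236, 3721 and 3314, against 1177 and 1150 (1.55 ± 0.11, limma adjusted p = 0.0010), and its call was robust. The oxidase Ero1l rose by 0.84 ± 0.19, and Vegfa, the angiogenic factor, averaged 5524 ± 431 and 5386 ± 271. The Cre control was uneven here too: over the 16 genes its libraries differed from the floxed control mean by -0.58, 0.51 and -0.28 on the log2 scale, against -0.52, -0.21 and -0.41 in the Cre-Idh1 libraries. Car9 in the Cre control had 372, 1775 and 504 normalized counts, which spans both floxed control values.

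**Figure D4:**
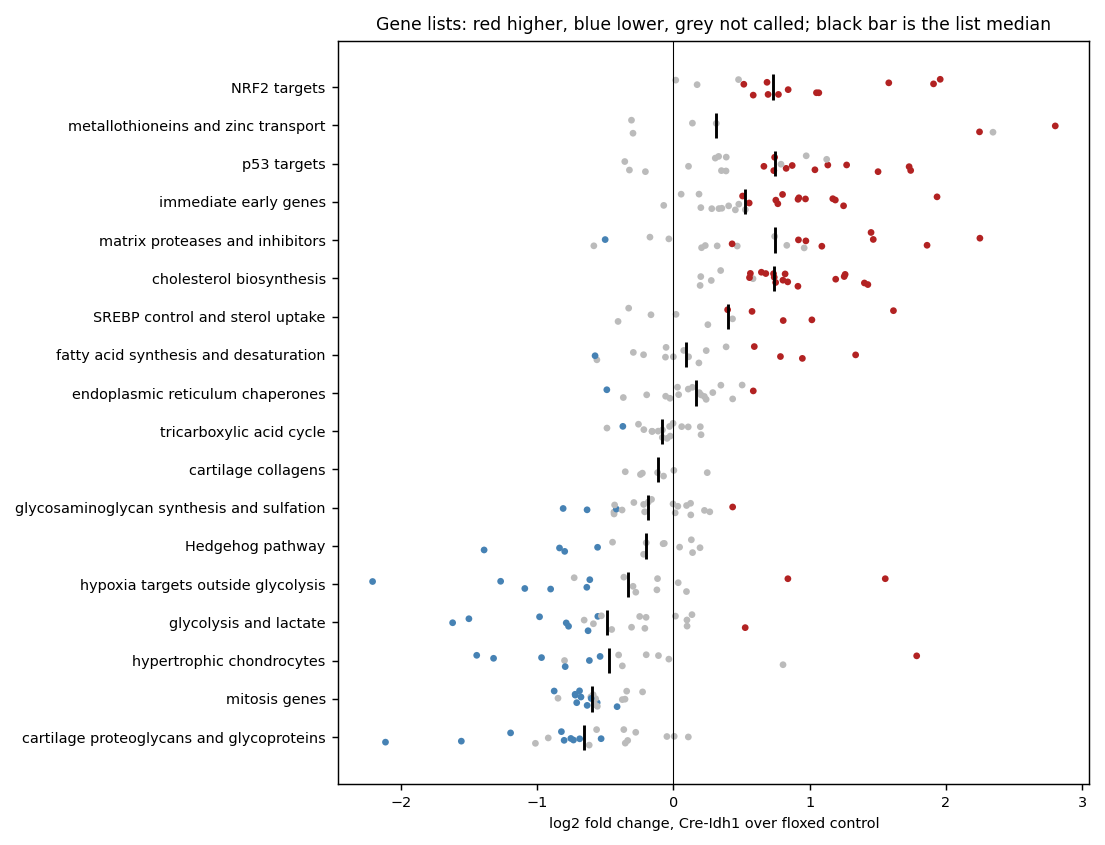
The log2 fold change of Cre-Idh1 over the floxed control (x axis) for each tested gene (point) of 18 lists (y axis), in red if called higher, blue if called lower and grey if not called, with the list median as a black bar. The NRF2 list has 11 red points of 14 and the cholesterol list 16 of 21, while the proteoglycan list has 9 blue points of 20 and the mitosis list 10 of 20.

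In the cartilage matrix, none of 7 cartilage collagens was called, and Col2a1, the main one, had 5988460, 7828940 and 8277660 normalized counts in Cre-Idh1, against 6829150 and 7759140 in the floxed control. Aggrecan (Acan) averaged 368686 ± 33426 in Cre-Idh1 and 341500 ± 27983 in the floxed control and was not called. Of 20 proteoglycans and glycoproteins of cartilage, 9 fell and 0 rose, with a median log2 fold change of -0.65. Omd, osteomodulin, a small leucine-rich proteoglycan, had 1091, 1545 and 664 normalized counts in Cre-Idh1, against 4002 and 5048 in the floxed control (-2.11 ± 0.32, limma adjusted p = 0.00722). Ogn, osteoglycin, had 1756, 2308 and 1077, against 4146 and 5581 (-1.56 ± 0.30, limma adjusted p = 0.0163). Matn3, matrilin 3, which links matrix fibrils, had 11209, 10348 and 9039, against 25055 and 21596 (-1.20 ± 0.13, limma adjusted p = 0.0027), and was the robust member. The collagen-binding Fmod, Chad, Prelp, Lum and Epyc and the cartilage matrix protein Ucma also fell, by 0.53 for Epyc to 0.82 for Chad on the log2 scale.

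Of 21 genes for glycosaminoglycan synthesis and sulfation, 3 fell and 1 rose. Those that fell act in sulfate supply: Slc26a2, the sulfate transporter mutated in diastrophic dysplasia, averaged 17277 ± 1512 in Cre-Idh1 and 26778 ± 2017 in the floxed control, Impad1, a Golgi phosphatase of the sulfation pathway, 9343 ± 1936 and 16144 ± 1265, and Papss1, which makes the sulfate donor, 3143 ± 123 and 4200 ± 33.5. Papss2, the other enzyme for the donor, averaged 35839 ± 5326 and 48089 ± 4218 and was not called (limma adjusted p = 0.0977). Sox9, the transcription factor required for chondrocyte identity, had 34111, 36444 and 37347 normalized counts in Cre-Idh1, against 36146 and 36615 in the floxed control, so the groups overlapped. Its partner Sox5 fell by 0.55 ± 0.11 on the log2 scale (limma adjusted p = 0.0188).

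Of 14 genes of hypertrophic chondrocytes, 6 fell and 1 rose, with a median log2 fold change of -0.47. The list was uneven between libraries. Against the floxed control mean, its mean log2 value differed by 0.04, -0.68 and -0.44 in the Cre-Idh1 libraries. The floxed controls themselves lay at 0.15 and -0.15, and the Cre control libraries at -0.31, -0.09 and -0.28. Col10a1, the collagen of hypertrophic cartilage, had 27853, 20345 and 13579 normalized counts in Cre-Idh1, against 63854 and 38050 in the floxed control (-1.32 ± 0.32, limma adjusted p = 0.0338). Panx3, a channel of prehypertrophic and hypertrophic cells, had 1562, 1228 and 612, against 3131 and 2632 (-1.44 ± 0.35, limma adjusted p = 0.0347). Pth1r, the receptor of parathyroid hormone-related protein, had 3401, 3158 and 3759, against 7343 and 6135 (-0.97 ± 0.12, limma adjusted p = 0.00461), and was the robust member. The transcription factors Mef2c (-0.79 ± 0.21), Runx2 (-0.62 ± 0.13) and Runx3 (-0.54 ± 0.13) fell as well. Slc37a2, a sugar phosphate exchanger that is also known from macrophages and osteoclasts, rose to 507, 191 and 322, against 83.0 and 99.0. Without some single libraries the adjusted p of Col10a1 and Panx3 went up to 0.21 and 0.189.

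Of 11 mineralization genes, 2 fell. Smpd3, a sphingomyelinase needed for cartilage and bone mineralization, had 4843, 4890 and 4393 normalized counts in Cre-Idh1, against 14217 and 12244 in the floxed control (-1.49 ± 0.11, limma adjusted p = 0.00122), and was robust. Phex, the peptidase mutated in X-linked hypophosphatemia, had 489, 281 and 197, against 1112 and 773 (-1.62 ± 0.36, limma adjusted p = 0.0257). Spp1, osteopontin, had 38209, 23480 and 38196, against 61182 and 30124, and its groups overlapped. Markers of osteoblasts moved with these genes: Sp7 and the shared members Phex and Smpd3 fell, 3 of 10 tested, while the summed level of the list was 24423 to 64826 in Cre-Idh1 and 44221 to 46694 in the floxed control. Their part in the result was not tested.

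In the Hedgehog pathway, 4 of 13 genes fell and 0 rose, with a median of -0.20. Gli1, a transcription factor and target of the pathway, had 432, 428 and 447 normalized counts in Cre-Idh1, against 1059 and 1232 in the floxed control (-1.39 ± 0.13, limma adjusted p = 0.00193), and was robust. The receptor Ptch1 and the decoy receptor Hhip, which are targets too, averaged 1775 ± 219 and 194 ± 16.5 in Cre-Idh1 and 3099 ± 594 and 351 ± 74.4 in the floxed control, and both fell. The ligand Ihh had 1926, 1475 and 1564, against 2210 and 1614, and the signal transducer Smo averaged 5723 ± 449 and 6648 ± 45.7. Neither was called.

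Among Wnt antagonists, 3 of 9 tested fell and 1 rose. Frzb, a secreted antagonist of articular and growth cartilage, had 7044, 9050 and 6217 normalized counts in Cre-Idh1, against 16137 and 17028 in the floxed control (-1.17 ± 0.16, limma adjusted p = 0.00559). Wif1 and Sfrp1 fell by 0.59 and 0.51 on the log2 scale, and Sfrp5 rose by 1.09 ± 0.22. Of 10 Wnt targets, 1 fell, Tnfrsf19, a receptor of the tumour necrosis factor family (-1.62 ± 0.20, limma adjusted p = 0.00434), and Axin2, the usual readout, averaged 95.2 ± 22.1 and 141 ± 6.80 and was not called. Of 15 FGF pathway genes, Fgfr4 fell (-1.02 ± 0.12) and the ligand Fgf2 (1.20 ± 0.31) and the feedback phosphatase Dusp6 (1.17 ± 0.24) rose. Fgfr3, the receptor that restrains growth cartilage, averaged 47982 ± 4294 and 43200 ± 1369 and was not called. The FGF list's median log2 fold change was 0.70. Its groups did not overlap for 7 higher and 1 lower genes, beside 26.6% and 26.7% of all genes. Against the floxed control mean, its mean log2 value was 0.57, 0.41 and 0.50 in Cre-Idh1. The floxed controls themselves lay apart, at 0.35 and -0.35. Of 12 genes of the insulin-like growth factor system 3 rose, among them Pappa, the protease that frees IGF from its binding proteins, with 629, 734 and 610 normalized counts in Cre-Idh1, against 221 and 201 in the floxed control (1.63 ± 0.15, limma adjusted p = 0.00192). Pappa was robust.

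Of 19 matrix proteases and their inhibitors, 8 rose and 1 fell, with a median log2 fold change of 0.74. Adamts1, a protease that cleaves versican and aggrecan, had 9051, 10970 and 9009 normalized counts in Cre-Idh1, against 3686 and 3374 in the floxed control (1.45 ± 0.12, limma adjusted p = 0.00181). Timp3, an inhibitor of metalloproteinases and of ADAMTS enzymes, had 15954, 17813 and 15808, against 7932 and 7588 (1.09 ± 0.10, limma adjusted p = 0.00195). Both were robust, so a protease and an inhibitor of its family rose together. Mmp3, stromelysin 1, had 385, 726 and 443, against 152 and 71.0 (2.25 ± 0.37, limma adjusted p = 0.0102). The plasminogen activators Plat (1.86 ± 0.36) and Plau (1.47 ± 0.30) rose. Mmp2, gelatinase A, was the 1 member that fell, to 8668, 9141 and 9580 in Cre-Idh1, against 13200 and 12629 in the floxed control, and Mmp13, the collagenase of hypertrophic cartilage, had 1820, 543 and 630, against 1133 and 675, with overlapping groups.

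Immediate early genes, which respond within minutes to growth factors and stress, rose in 12 of 23 cases with 0 lower, and their median log2 fold change was 0.53. Fosl1, an AP-1 subunit, had 809, 690 and 734 normalized counts in Cre-Idh1, against 231 and 162 in the floxed control (1.93 ± 0.18, limma adjusted p = 0.00195). Klf4 and Myc, both transcription factors, averaged 11003 ± 387 and 5912 ± 472 in Cre-Idh1 and 4837 ± 416 and 2628 ± 243 in the floxed control, and all 3 were robust. The classical members Fos and Egr1 averaged 18521 ± 1127 and 38826 ± 1830 in Cre-Idh1 and 16244 ± 249 and 30467 ± 4018 in the floxed control, and neither was called. Of 18 ATF4 targets, 4 rose and 1 fell, among them Ddit3, which encodes CHOP (0.88 ± 0.14), Cebpb (1.04 ± 0.10) and Ppp1r15a, which encodes GADD34 (1.03 ± 0.13). Of 18 chaperone genes of the endoplasmic reticulum, Hyou1 rose (0.59 ± 0.09) and Xbp1, a regulator of the unfolded protein response, fell (-0.49 ± 0.11), while Hspa5, the chaperone BiP, averaged 58287 ± 4088 and 47659 ± 1843 and was not called.

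Of 15 inflammatory genes, 4 rose, with a median of 0.93, and the Cre-Idh1 libraries were uneven, from 0.16 above the floxed control mean on the log2 scale in replicate 3 to 1.66 in replicate 2. Csf1, the growth factor of macrophages, had 3842, 4517 and 3606 normalized counts in Cre-Idh1, against 1847 and 2100 in the floxed control (1.01 ± 0.13, limma adjusted p = 0.00454), and was robust. Ccl2, a chemokine for monocytes, had 37.2, 126 and 47.8, against 10.7 and 15.8 (2.14 ± 0.54, limma adjusted p = 0.0384). The neutrophil chemokine Cxcl1 had 366, 1140 and 146, against 113 and 107, and was not called. Macrophage markers moved with this list: 6 of 12 rose and 0 fell, among them the complement genes C1qa, C1qb and C1qc and the CSF1 receptor Csf1r, which had 801, 445 and 556 in Cre-Idh1, against 266 and 309 in the floxed control. Their summed level was 10390, 4945 and 4088 in Cre-Idh1 and 4102 and 3119 in the floxed control, with no marker at 0. By this sum, replicate 1 was the highest and replicate 3 fell within the control range. The mean log2 value of the 12 markers, however, exceeded the floxed control mean by 1.86, 0.94 and 0.79 in the Cre-Idh1 libraries. The floxed controls lay at -0.06 and 0.06. The macrophage list's median log2 fold change was 1.02. For 9 of the 12 all Cre-Idh1 libraries lay above both floxed controls and for 0 below, beside 26.6% and 26.7% of all genes. None of 8 osteoclast, 9 neutrophil or 7 erythroid markers was called, and among the 5 libraries compared their summed levels were also highest in Cre-Idh1 replicate 1, at 12692, 22772 and 14083. The erythroid sum was higher still in Cre control replicate 2, at 15545. Though not called, the osteoclast markers had a median log2 fold change of 0.97. For 5 of these 8 all Cre-Idh1 libraries lay above both floxed controls, beside 26.6% of all genes. The osteoclast sums were 12692, 6580 and 7761 in Cre-Idh1, against 6194 and 5881 in the floxed control. The part of these cell types in the results was not tested.

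Of the genes with the largest differences, several are known from tissues other than cartilage. The 12 largest rises among called genes with at least 100 normalized counts were Otog, Ostn, Krt16, Esr1, Nefm, B4galnt2, Miat, Kif1a, Fibcd1, Sstr2, Asic4 and Cdsn, with log2 fold changes of 5.30 for Otog to 2.86 for Cdsn, and all 12 were robust. Otog encodes otogelin, a protein of the acellular membranes of the inner ear, and had 363, 494 and 382 normalized counts in Cre-Idh1, 17.6, 19.2 and 12.4 in the Cre control and 5.86 and 14.9 in the floxed control. Ostn encodes osteocrin, a bone and muscle hormone, and had 117, 228 and 180 in Cre-Idh1, against 8.79 and 3.51 in the floxed control. Krt16, a stress-induced keratin, had 215, 354 and 303, against 9.76 and 12.3, and Cdsn, corneodesmosin of the epidermis, had 1725, 2754 and 2626, against 267 and 380. Keratins are a family of similar genes, so reads of Krt16 could belong in part to a relative. Neuronal genes were among them too: the neurofilament gene Nefm had 130, 148 and 149, against 11.7 and 3.51, and the kinesin gene Kif1a had 349, 413 and 341, against 49.8 and 21.9.

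Marker lists of epithelium and nerve moved with these rises. Of 9 epithelial markers, 5 were tested, and the rest, the keratins of basal keratinocytes among them, were not analysed here. Of the 5, Epcam, Cdh1 and Dsp rose and Krt8 fell, and their summed level was 749 to 1070 in Cre-Idh1 and 348 to 505 in the floxed control. Of 9 Schwann and neural markers, Erbb3 and Ngfr rose, and the summed level was 4857 to 7475 in Cre-Idh1 and 5801 to 5975 in the floxed control. No listed member of these sets was at 0 in any library, and their part in the rises was not tested. Among robust genes of at least 1000 normalized counts, Tenm4, a teneurin adhesion receptor, had 3478, 4651 and 4632 in Cre-Idh1, against 558 and 918 (2.56 ± 0.22, limma adjusted p = 0.00187), and Nes, the intermediate filament nestin, had 4092, 3044 and 3282, against 1118 and 449 (2.28 ± 0.34, limma adjusted p = 0.0073).

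The 12 largest falls by the same rule were Fam26e, Calml3, Tnnt3, Dmc1, Otogl, St6galnac2, Mgarp, As3mt, Dio2, Vit, Ooep and Dsg2, with log2 fold changes of -3.39 for Fam26e to -2.48 for Dsg2. Calml3, a calmodulin-like protein, had 81.7, 86.3 and 131 normalized counts in Cre-Idh1, against 895 and 725 in the floxed control (-3.04 ± 0.24, limma adjusted p = 0.00163). Dio2, the deiodinase that activates thyroid hormone, had 505, 601 and 476, against 2744 and 3732 (-2.61 ± 0.17, limma adjusted p = 0.000902). Otogl, the paralogue of Otog, had 41.4, 51.0 and 18.1, against 224 and 274, so that the 2 otogelin genes went opposite ways. As3mt, an arsenic methyltransferase, had 93.0, 72.6 and 114, against 575 and 579. Of these 12, Fam26e, Dmc1, Otogl, Mgarp and Vit lost the call without some single library, with adjusted p up to 0.0516 for Dmc1 and 0.118 for Fam26e. Rlbp1, a retinaldehyde-binding protein, and Ppp1r3b, a glycogen-targeting subunit of protein phosphatase 1, were among the robust falls above 1000 normalized counts, at -1.81 ± 0.16 and -1.65 ± 0.16.

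Tnnt3 encodes the troponin T of fast skeletal muscle and had 200, 191 and 261 normalized counts in Cre-Idh1, 1480, 1398 and 1422 in the Cre control and 1590 and 1811 in the floxed control (-2.97 ± 0.17, limma adjusted p = 0.000775). It was the 1 muscle marker of 9 tested that was called, and the median log2 fold change of those 9 was 0.56. The floxed controls were uneven over these 9, with mean log2 values 1.55 above and 1.55 below their own mean. The Cre-Idh1 libraries lay between them, at 0.49, -0.47 and -0.24. The summed level of the muscle list, 512 to 670 in Cre-Idh1 and 1991 to 2246 in the floxed control, was mostly Tnnt3 in the floxed control but not in Cre-Idh1, and Myh8, Actc1 and Ckm were at 0 in at least 1 library. Of the smooth muscle list, Acta2 fell (1477, 2000 and 1442, against 3461 and 3504) and Cspg4, a proteoglycan that cartilage also expresses, rose. Myl9, a myosin light chain of smooth muscle and non-muscle cells, fell to 309, 331 and 271, against 1061 and 1049 (-1.80 ± 0.14, limma adjusted p = 0.0016). Among 15 perichondrial and fibroblast markers, Prrx1, a limb mesenchyme transcription factor, had 1901, 1937 and 1591, against 4043 and 4064 (-1.17 ± 0.12, limma adjusted p = 0.00231), and Pdgfra (-0.93 ± 0.15) and Lum fell, while Twist2 rose. The summed level of these 15 overlapped, at 118841 to 168540 in Cre-Idh1 and 151682 to 183805 in the floxed control.

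**Figure D5:**
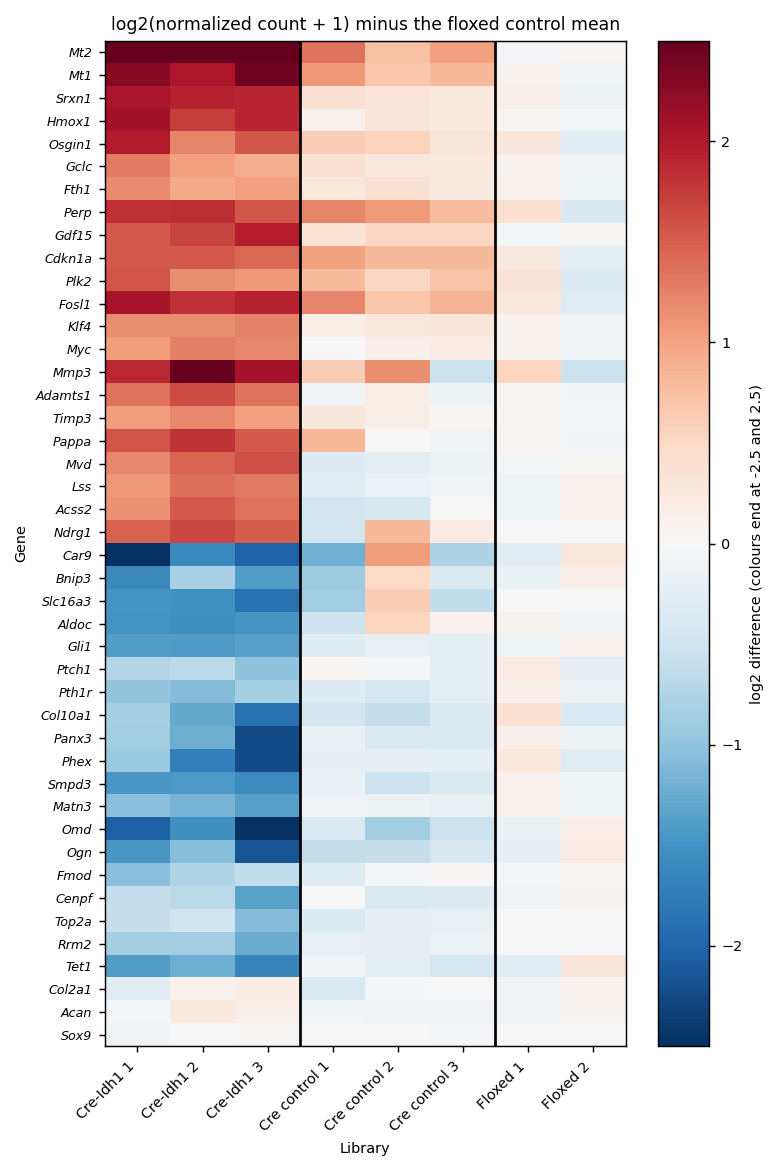
Colours give the log2(normalized count + 1) of 44 genes (rows) in the 3 Cre-Idh1, 3 Cre control and 2 floxed control libraries (columns) minus the mean of the 2 floxed control libraries, red above and blue below it. Mt2, Srxn1 and Hmox1 are red and Smpd3, Matn3 and Omd blue in all 3 Cre-Idh1 libraries, while Car9 and Slc16a3 vary between the Cre control libraries and Col2a1, Acan and Sox9 stay near white.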

How the data were processed

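The deposited tables hold normalized counts per gene and library (a signal, not raw counts), made by the authors. The tools named per the submitters' processing notes are DESeq2, HTSeq, STAR, cutadapt and Trim Galore. The genome build, tool versions and strand setting of the counting were not given in the sources used here. Per the labels' protocols, mRNA libraries were made with a stranded kit, but without the counting setting antisense and overlapping genes stay uncertain. All values of each library were whole multiples of a fixed step (100% within 0.001 reads), so the reads behind them were recovered.

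Of 16432 genes, the 15212 with at least 10 normalized counts in at least 2 of the 5 libraries were tested with limma 3.58.1 (R 4.3.3, trend, no covariate) on log2(value + 1), two-sided, with Benjamini-Hochberg adjustment over all genes; fold changes on this scale understate low genes. The count test of edgeR 4.0.16 on the recovered reads called 2212 genes, and DESeq2 1.42.0 was a further alternative. On simulated data of 14931 genes with 200 changed, limma recovered 10.4% of 1.5-fold, 61.2% of 2-fold and 98.5% of 4-fold changes with 4 false calls. Replicate numbers follow accession order and pair nothing.

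The members and the 53 gene lists were chosen with earlier results of these data known, so no list is independent evidence. The text names Idh1, the 12 largest changes in each direction with at least 100 normalized counts in the higher group and groups that do not overlap, up to 6 called members of each list and direction, and key members not called; Gas6 was named after its values were seen. Some members counted in the lists are not reported here by name. Lists are described by counts and medians without a set test.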

Additional observations from a re-analysis of the deposited data

How the results depend on the processing

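The calls, 1137 genes higher and 1059 lower, moved by more than 1.5 times where libraries were added or left out: to 1747 and 1849 with all 8 libraries in 1 limma fit, which adds degrees of freedom, and to between 144 and 1770 higher and between 75 and 1982 lower without 1 library, lowest without floxed control replicate 2 and highest without Cre-Idh1 replicate 3. At an adjusted p under 0.1 the counts were 1810 and 1744. The other pseudocounts (0.5 and 5), filters (none, or at least 50 normalized counts), scalings (TMM and CPM) and edgeR gave 1046 to 1146 higher and 881 to 1128 lower, and DESeq2 gave 1550 and 1537. Of 2196 calls, edgeR kept 2134 and DESeq2 2184. No paired analysis was possible because replicate numbers follow accession order and the labels tie no library of one group to one of the other. With 2 floxed control libraries, 10.4% of 1.5-fold changes were recovered in simulated data where 200 of 14931 genes changed. That share need not hold here, where 14.4% of the genes tested were called and the cutoff depends on such a share. A gene not called is not shown to be equal. Of 164 called genes named here, 152 (CPM) to 164 kept the call under the other filters, pseudocounts, scalings and tools, and 56 (without floxed control replicate 2) to 162 without 1 library. None of these 164 turned its direction under any alternative, and 15 named genes that were not called changed sign in some fits, where the cause was not tested. Without 1 library the log2 fold change was -0.26 to 0.28 for Abca1, -0.76 to 3.38 for Actc1, -2.33 to 1.20 for Ckm, -0.089 to 0.15 for Col2a1, -0.031 to 0.090 for D2hgdh, -0.43 to 0.027 for Ihh, -0.063 to 0.093 for Keap1, -0.58 to 0.34 for Mmp13, -4.29 to 0.080 for Myh8, -0.076 to 0.51 for Slc7a11, -0.045 to 0.020 for Sox9, -0.91 to 0.11 for Spp1, -0.10 to 0.069 for Tet2, -0.028 to 0.086 for Vegfa and -0.13 to 4.88 for Xist. Abca1 was 0.0062 on the CPM scale, 0.045 in edgeR and 0.050 in DESeq2, and Tet2 was 6.6e-05 on the CPM scale. Ckm was -0.11 with a pseudocount of 5, -1.03 in edgeR and -1.04 in DESeq2, Col2a1 was -0.010 with TMM, and Mmp13 was 0.14 in edgeR and 0.14 in DESeq2.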

Other observations

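A larger share of X-linked than of autosomal genes was called lower, a pattern noticed after the values were seen and described without a test. Of 520 X-linked genes tested, 93 were called lower (17.9%) and 16 higher, whereas of 14075 autosomal genes 949 were called lower (6.74%) and 1079 higher. The median log2 fold change of Cre-Idh1 over the floxed control was -0.23 on X and 0.004 on the autosomes. It was low in each Cre-Idh1 library against the floxed control mean, at -0.20, -0.15 and -0.36, in the female library (replicate 1) as in the male ones. All 3 Cre-Idh1 libraries lay below both floxed controls for 43.7% of X-linked genes and for 26.5% of autosomal genes. Against the Cre control the X median was -0.18, and floxed control over Cre control gave 0.06; both rest on Cre control libraries of mixed sex, of which replicates 1 and 3 had the female pattern. Among the X-linked genes that fell, Sh3bgrl, an adaptor-like protein, averaged 762 ± 278 normalized counts in Cre-Idh1 and 2408 ± 202 in the floxed control. Klhl13, a ubiquitin ligase adaptor, averaged 1574 ± 441 in Cre-Idh1 and 4384 ± 217 in the floxed control, and the kinase gene Pak3 averaged 2732 ± 697 and 6345 ± 704 (SD, n = 3 and 2). Chromosomes were taken from the RefSeq annotation by symbol. Gene length, base composition and the difference between chromosomes were not tested.

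Of 9 mitochondrially encoded transcripts tested, 2 rose and 0 fell, beside 7.47% higher among all genes, with a median log2 fold change of 0.15. The groups did not overlap for 3 that were higher and 2 that were lower in Cre-Idh1, near the 26.6% and 26.7% of all genes. The summed levels overlapped, at 414182, 396889 and 323556 normalized counts in Cre-Idh1, against 340115 and 372768 in the floxed control. The ribosomal RNA gene mt-Rnr1 had 16793, 16778 and 15548 in Cre-Idh1, against 8266 and 11054 in the floxed control (0.78 ± 0.14, limma adjusted p = 0.013), and mt-Nd6, a subunit of respiratory complex I, had 13852, 16505 and 16802 normalized counts in Cre-Idh1, 7874, 5671 and 5479 in the Cre control, and 7101 and 10109 in the floxed control (log2 fold change 0.89 ± 0.17, limma adjusted p = 0.0159).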
